A study of Mus musculus with 21 samples.

Results

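Plasmacytoid dendritic cells (pDC) are interferon-producing relatives of the conventional dendritic cells (cDC). Their identity depends on the E protein Tcf4, together with Spib and Runx2. Their surface and effector genes include Siglech, Ly6d, Pacsin1, Cox6a2 and Klk1. These 8 genes, out of 37734 in the data, were followed across libraries that were sorted to contain cDC and not pDC. They were chosen by symbol from the known pDC program, with their values in these same samples in view. Their levels, differences and correlations are therefore given as a description, without p values. Tests are given only for genes that are not among the 8, namely 33 further pDC genes, Id2 and the sorting genes Ccr7 and Esam. The lists of these genes were also written with earlier results of these data known, and their p values and counts carry that limit. Ccr7 and Esam, moreover, defined the sort.

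The samples came from untreated C57BL/6 mice aged 6 to 8 weeks, with cells of several animals pooled for each sort. CD11c-selected cells of thymus and spleen were sorted by flow cytometry into cDC1 (CD24+ CD11b-) and cDC2 (CD24- CD11b+). Immature cells lacked CCR7 and Esam, and mature cells carried both. All sorted cells were B220-, a gate that removes B cells and pDC. The 21 libraries formed 6 groups: immature splenic cDC1 (called splenic cDC1, 4 samples after 2 libraries of the same pool were combined), immature thymic cDC1 (4), mature thymic cDC1 (3), immature splenic cDC2 (called splenic cDC2, 3), mature thymic cDC2 (3) and immature thymic cDC2 (3). Each of the 2 groups with 4 samples came from 3 pools. Mature splenic cells were not analysed here. Because no sorted pDC were measured either, the levels below have no pDC reference beside them.

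Each library held between 14266867 and 40119669 reads. Values are normalized read counts, that is, reads divided by the size factor of the library, and are listed in the order of the replicate numbers. The sort marker Ccr7 ran from 91722 to 129531 in the 6 mature samples and from 261 to 5433 in the 14 immature samples, so that the transcript followed the gate. Sirpa, a cDC2 marker, averaged 22676 in splenic cDC2 and 1094 in splenic cDC1, and the cDC1 marker Xcr1 averaged 12576 in splenic cDC1 and 46.9 in splenic cDC2. In bulk samples, a few cells with much of a transcript and many cells with little of it cannot be told apart.

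The sequences upstream of Siglech and Spib are shown because these genes differed in opposite directions between immature and mature thymic cells, Siglech being lower and Spib higher in the mature cells. The 250 bases before each start site are from RefSeq on build GRCm38.p6, printed 5′ to 3′ on the strand of the gene. Capitals mark every match, on either strand, to CANNTG (the E-box read by E proteins such as Tcf4), TGTGGT (a Runx motif, ACCACA on the other strand) and GAGGAAGT (a core of the PU.1 and Spi-B motif). The Siglech window lies at chr7:55767934-55768183 on the plus strand and the Spib window at chr7:44532072-44532321 on the minus strand.
Siglech: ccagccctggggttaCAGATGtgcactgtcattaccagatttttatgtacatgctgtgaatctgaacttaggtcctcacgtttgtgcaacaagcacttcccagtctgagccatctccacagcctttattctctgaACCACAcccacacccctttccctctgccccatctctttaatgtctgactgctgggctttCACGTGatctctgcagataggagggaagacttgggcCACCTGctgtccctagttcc
Spib: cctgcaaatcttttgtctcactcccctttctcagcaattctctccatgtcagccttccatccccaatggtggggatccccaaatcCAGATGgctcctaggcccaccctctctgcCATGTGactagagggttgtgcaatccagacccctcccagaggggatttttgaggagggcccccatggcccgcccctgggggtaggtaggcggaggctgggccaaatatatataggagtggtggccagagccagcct

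The Siglech window held 3 E-boxes and 1 Runx match, and that of Spib held 2 E-boxes and no Runx match. The GAGGAAGT core was in neither window. Of 32851 upstream windows of the same length, 66.2% held an E-box, 14.0% the Runx motif and 2.4% the GAGGAAGT core. An E-box near these genes was thus the rule among all genes. RefSeq windows were found for 5 of the 8 genes and not for Tcf4, Ly6d and Cox6a2.

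Siglech, which encodes the sialic acid-binding lectin used to recognize mouse pDC, was highest in immature thymic cDC2 and nearly lost from mature cells. Its normalized read counts were 188, 341, 314 and 364 in splenic cDC1 and 413, 468, 323 and 452 in immature thymic cDC1. They were 81.5, 122 and 55.4 in splenic cDC2 and 732, 1120 and 813 in immature thymic cDC2. The mature samples gave 0, 0 and 24.0 in cDC1, and 36.1, 37.6 and 40.8 in cDC2. Only immature thymic and splenic cDC1, neighbours in the order of the means, overlapped. Immature thymic cDC2 exceeded splenic cDC2 10.3-fold (888 ± 205 against 86.4 ± 33.8, SD, n = 3 each), a log2 difference of 3.40 ± 0.77 (limma standard error, here and below). In cDC1 the same tissue difference was 0.48 ± 0.66.

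Mature thymic cDC2 held 23.3-fold less Siglech than immature thymic cDC2, a log2 difference of -4.48 ± 0.77. In cDC1 the difference was -7.14 ± 0.72. That value rested on a single library with 30 reads and 2 libraries with 0 reads, and it was -8.68 without replicate 3 and -6.36 without replicate 1 or 2. It was -5.26 by edgeR on the recovered reads, and -5.04 with 8 in place of 1 added before the log. The mature cDC2 samples lay above the mature cDC1 samples (log2 difference 3.74 ± 0.77), but edgeR on the recovered reads put this difference at 1.83. The gene lies at chr7:55768178-55778925 in the GENCODE M21 annotation of the same build, and no other exon overlaps its exons.

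**Figure D1:**
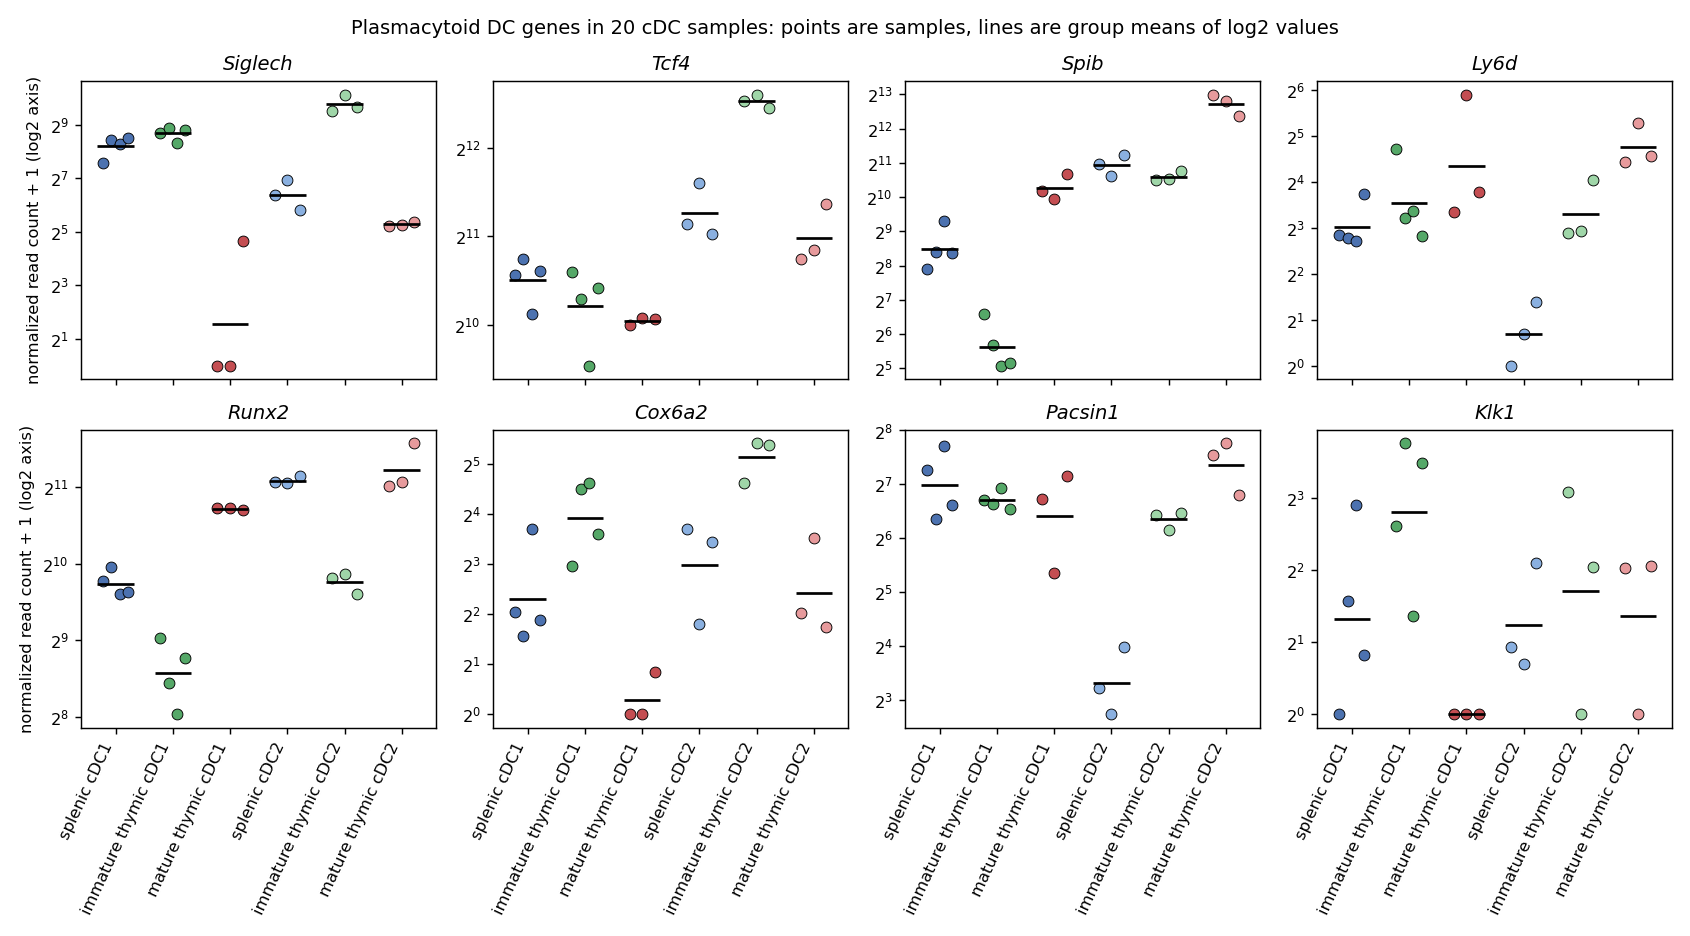
Normalized read counts plus 1 of the 8 pDC genes on a log2 axis, 1 panel per gene, with 1 point for each of the 20 samples and a line at the group mean of the log2 values. Siglech and Cox6a2 are highest in immature thymic cDC2 and drop in mature cells, whereas Spib and Runx2 are higher in mature than in immature thymic cells.

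Tcf4, the E protein that specifies pDC, was present in all 20 samples and stood out in immature thymic cDC2. There its counts were 5887, 6202 and 5606, above every sample of the other 5 groups. They were 2260, 3106 and 2091 in splenic cDC2 and 1714, 1840 and 2631 in mature thymic cDC2. The cDC1 groups had lower means, with 1514, 1719, 1112 and 1565 in the spleen, 1544, 1254, 744 and 1367 in immature thymic cells and 1025, 1078 and 1075 in mature thymic cells. Immature thymic cDC1 overlapped both other cDC1 groups, and mature thymic cDC1 lay just below the spleen. The tissue difference was 1.27 ± 0.23 on the log2 scale in cDC2 and -0.30 ± 0.20 in cDC1. With maturation Tcf4 was lower by 1.54 ± 0.23 in cDC2 (2.86-fold), and the change in cDC1 was -0.16 ± 0.22. Between immature thymic cDC2 and cDC1 the ratio was 4.81 (log2 difference 2.31 ± 0.22).

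Id2 encodes the inhibitor that binds E proteins and opposes Tcf4. It is not among the 8 genes and was tested. Its counts were 1068, 986 and 1001 in splenic cDC2 and 2435, 3851 and 2829 in immature thymic cDC2. They were 19834, 27712 and 31844 in mature thymic cDC2. All cDC1 samples held between 7434 and 44967. With maturation Id2 rose 8.71-fold in cDC2 (log2 difference 3.12 ± 0.21, limma adjusted p = 2.68e-10) and 3.12-fold in cDC1 (1.64 ± 0.20, limma adjusted p = 4.57e-07). Splenic cDC2 held 10.9-fold less than splenic cDC1 (limma adjusted p = 4.72e-11). Id2 and Tcf4 were thus both higher in immature thymic than in splenic cDC2, whereas with maturation of thymic cDC2 Id2 was higher and Tcf4 lower.

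Spib, an Ets family factor of pDC and B cells, reached the highest level per length of the 8 genes, and was lowest in immature thymic cDC1. Its counts there were 94.6, 50.8, 32.8 and 34.4, against 238, 334, 631 and 328 in splenic cDC1 and 1158, 979 and 1645 in mature thymic cDC1. In cDC2 they were 1994, 1563 and 2407 in the spleen and 1456, 1472 and 1738 in immature thymic cells. Mature thymic cDC2 gave 8134, 7078 and 5240. The 3 groups in the middle of the order (splenic cDC2, immature thymic cDC2, mature thymic cDC1) overlapped their neighbours, and the others did not. Maturation went with a 23.7-fold higher level in cDC1 (4.64 ± 0.33 on the log2 scale) and a 4.38-fold higher level in cDC2 (2.11 ± 0.35). Immature thymic cDC1 lay below splenic cDC1 (log2 difference -2.87 ± 0.30), and the tissue difference in cDC2 was -0.34 ± 0.35. Per kb of exon, Spib averaged 2377 normalized reads in mature thymic cDC2, above 96.6% of the 14960 genes ranked. Siglech at its highest averaged 263 per kb, above 72.5% of them.

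Runx2, a runt-domain factor needed for pDC to leave the bone marrow, followed Spib more closely than any other of the 8 genes. Its counts were 870, 989, 776 and 787 in splenic cDC1 and 519, 346, 261 and 435 in immature thymic cDC1. Mature thymic cDC1 gave 1692, 1690 and 1657. In cDC2 they were 2142, 2115 and 2254 in the spleen, 894, 927 and 779 in immature thymic cells and 2067, 2138 and 3043 in mature thymic cells. Splenic and mature thymic cDC2 overlapped, and so did immature thymic cDC2 and splenic cDC1. Runx2 was lower in thymic than in splenic immature cells in both lineages, by 1.17 ± 0.17 in cDC1 and by 1.33 ± 0.20 in cDC2 on the log2 scale. Maturation went with log2 differences of 2.15 ± 0.19 in cDC1 and 1.46 ± 0.20 in cDC2. In each of the 3 pairs of matched groups cDC2 lay above cDC1. Exons of Runx2 overlap those of the antisense gene Runx2os1, and the strand setting of the read counting is not given in the sources used here.

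**Figure D2:**
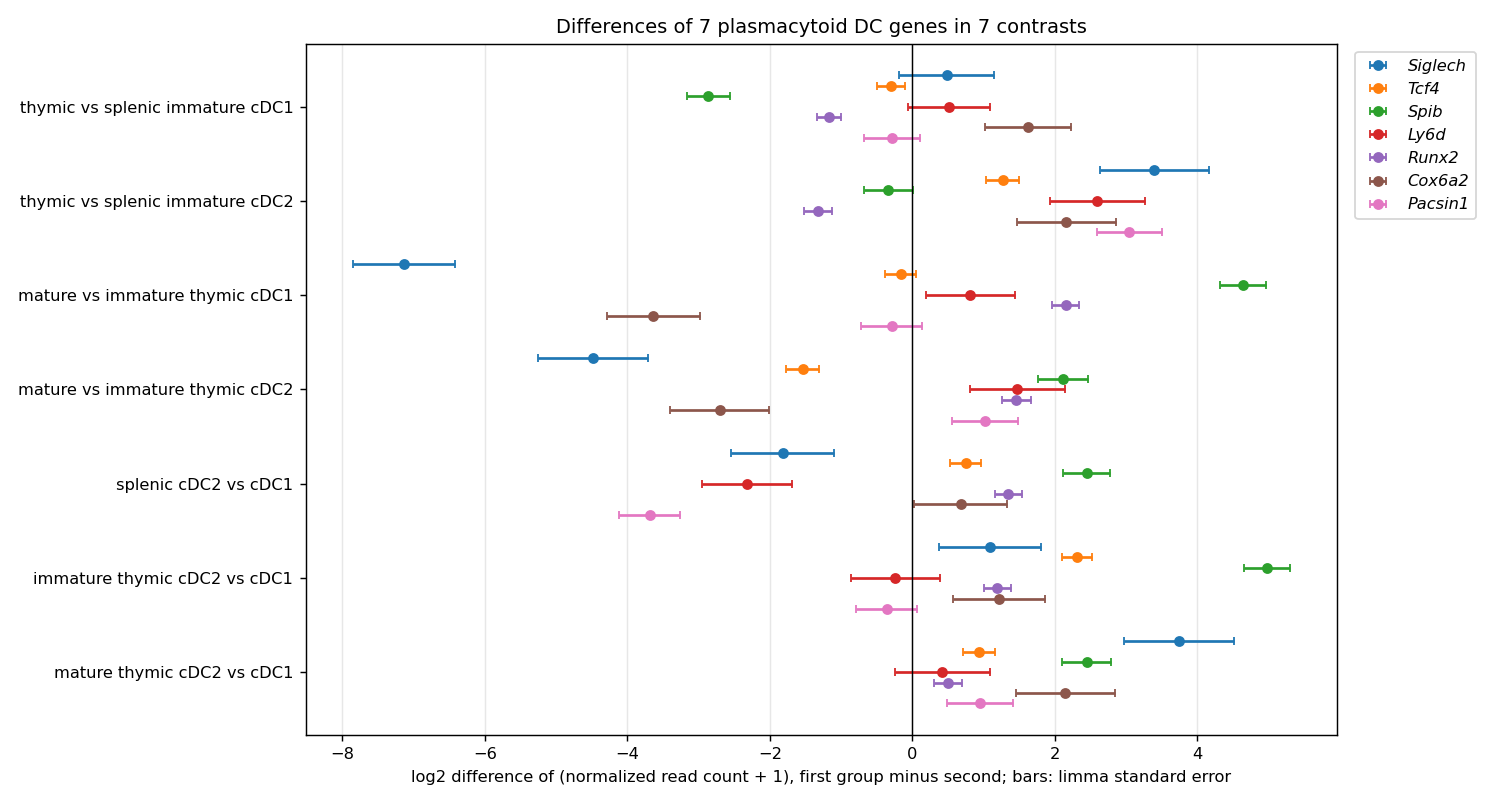
Log2 differences of normalized read count plus 1 (horizontal axis, first group minus second) for the 7 pDC genes that reached a value of 10 in 3 samples, in 7 contrasts, with limma standard errors as bars. In both maturation contrasts Siglech and Cox6a2 lie left of 0, and Spib and Runx2 right of it.

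The other 4 genes did not exceed a value of 217 in any sample. Pacsin1, an adaptor of vesicle traffic that takes part in the interferon response of pDC, held 5.62 to 14.7 normalized reads in splenic cDC2 and at least 39.9 in every other sample. Splenic cDC1 exceeded splenic cDC2 14.2-fold (log2 difference of cDC2 against cDC1 -3.69 ± 0.43), and immature thymic cDC2 exceeded splenic cDC2 8.49-fold (3.05 ± 0.46). With maturation the log2 difference was 1.02 ± 0.46 in cDC2 and -0.29 ± 0.43 in cDC1. The latter turned to 0.24 without mature thymic cDC1 replicate 2. Pacsin1 thus lay lower in splenic cDC2 than in all other samples, as Ly6d did, and none of Siglech, Tcf4, Spib and Runx2 had that pattern.

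Cox6a2, a tissue-restricted subunit of cytochrome c oxidase, rested on 0 to 62 reads per sample. Its values were 23.5, 41.5 and 40.5 in immature thymic cDC2 and 6.76, 21.6, 23.4 and 11.1 in immature thymic cDC1. Mature thymic cDC1 gave 0, 0 and 0.799, the last being 1 read. Mature thymic cDC2 held 3.07, 10.4 and 2.36, which was 6.65-fold less than immature thymic cDC2 (log2 difference -2.70 ± 0.70). The order of its groups resembled that of Siglech in that immature thymic cDC2 was highest, immature thymic cDC1 next and mature thymic cDC1 lowest. Its exons overlap those of Itgad on the other strand.

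Ly6d, a GPI-anchored protein of lymphoid progenitors that give rise to B cells and pDC, was low throughout, with at most 58.9 normalized reads. Splenic cDC2 held no more than 1 read in any sample, against 5.54 to 12.3 normalized reads in splenic cDC1 and 6.40 to 15.6 in immature thymic cDC2. Mature thymic cDC2 gave 20.7, 38.3 and 22.8, and mature thymic cDC1 gave 9.22, 58.9 and 12.8, so that 1 sample made the mean of the latter. Klk1, a kallikrein serine protease, held 0 to 15 reads per sample and did not reach the minimum for the fit. Mature thymic cDC1 had 0 reads in all 3 samples, which allows up to 3 reads in each, and immature thymic cDC1 had 1.56 to 12.5 normalized reads. No fold was computed for Klk1, and the intervals set by such counts cover counting error only.

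The 8 genes did not move as a block. Between thymic and splenic immature cDC1, 2 of the 8 did not overlap between the groups, both lower in the thymus (Spib, Runx2), where 17.8% of all genes tested did not overlap. In cDC2 there were 6, 5 higher in the thymus (Siglech, Tcf4, Ly6d, Cox6a2, Pacsin1) and 1 lower (Runx2), with 39.3% among all genes. With maturation 5 of 8 did not overlap in cDC1 (Spib and Runx2 higher, Siglech, Cox6a2 and Klk1 lower), and 7 of 8 in cDC2 (Spib, Ly6d, Runx2 and Pacsin1 higher, Siglech, Tcf4 and Cox6a2 lower). Over all genes the shares were 55.4% and 60.0%. Between cDC2 and cDC1, 6 of 8 were apart in the spleen, 6 in immature thymic cells and 5 in mature thymic cells, with 31.6%, 34.8% and 32.8% of all genes. All 5 in the mature cells (Siglech, Tcf4, Spib, Runx2, Cox6a2) were higher in cDC2. Since the genes were chosen with these values known, nothing is read from the counts.

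Whether the genes varied together between replicates was described by the correlation of deviations from the group means, over 20 samples with 6 group means removed. The median Pearson r over the 28 pairs was 0.094 and ranged from -0.722 to 0.815, with 17 pairs above 0. Over all pairs of genes tested the median r was 0.017, and the 5th and 95th percentiles were -0.607 and 0.671. The median Spearman rho of the 28 pairs was -0.066, and the median r was -0.027 without the most distant sample of each group. The points of a pair share their libraries, and with them depth, size factor and pool.

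Tcf4 and Runx2 had the highest r, 0.815 (rho 0.668), and r was 0.709 without the 2 samples farthest from the median of Tcf4. It was 0.888 within the cDC1 groups, 0.645 within the cDC2 groups and 0.822 in the 14 samples left without the most distant of each group. Tcf4 and Cox6a2 were opposed (r = -0.722, rho = -0.723), as were Tcf4 and Pacsin1 (r = -0.572, rho = -0.680), and in the 14 samples r was -0.449 and -0.399. Cox6a2 and Pacsin1 had r = 0.617 (rho 0.604), which was 0.510 without the 2 samples farthest from the median of Cox6a2, 0.605 within the cDC1 groups, 0.656 within the cDC2 groups and 0.110 in the 14 samples.

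Over all 20 samples, Siglech had low r within groups with the factors Tcf4, Spib and Runx2 and with Cox6a2 and Pacsin1. Over the 20 samples it was 0.178 with Tcf4, 0.286 with Spib, 0.033 with Runx2, 0.138 with Cox6a2 and 0.254 with Pacsin1. Within the cDC1 groups alone these values were 0.108, 0.383, 0.026, 0.282 and 0.446, and within the cDC2 groups alone they were 0.700, -0.695, 0.091, -0.406 and -0.817, in the same order. Their sign thus differed between the lineages for Spib, Cox6a2 and Pacsin1, and this difference was not tested. Against the 32 other pDC genes tested the median r was 0.284 (range -0.584 to 0.823), with 24 of them above 0. Against all 14965 other genes tested it was 0.121, with 5th and 95th percentiles of -0.454 and 0.617. In mature thymic cDC1 only 1 sample of 3 had any Siglech reads, and these medians are not given without that group. Within groups the highest r with Siglech, among genes with a mean value of at least 50, was that of Dab2 (0.959), followed by Gm14446, 5830432E09Rik, Fam72a, Gm26529, E2f8, Il1a, Ms4a4c, Tnfrsf22 and Qpct (0.916 to 0.938). Without the 3 mature thymic cDC1 samples, r was 0.494 for Dab2 and between -0.052 and 0.699 for the other 9.

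**Figure D3:**
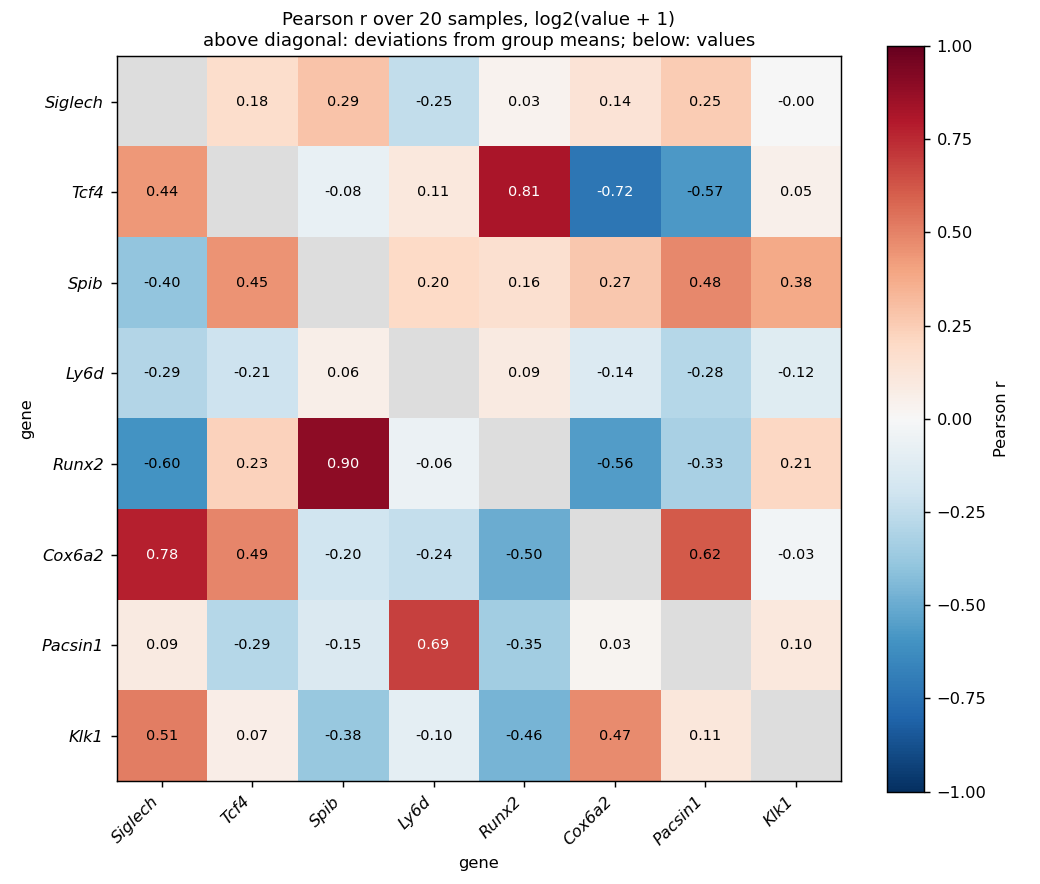
Pearson r between the 8 pDC genes over 20 samples, computed on log2 of the normalized read count plus 1, with deviations from the group means above the diagonal and the values themselves below it. Spib and Runx2 have r = 0.895 across the groups and 0.163 within them, while Tcf4 and Runx2 have r = 0.227 across the groups and 0.815 within them.

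Across the 20 samples the picture was another, since r then reflects the 6 group means. Spib and Runx2 had r = 0.895 and Siglech and Cox6a2 had r = 0.778, whereas Siglech and Runx2 had r = -0.601. The 10 genes most like Siglech over the 20 samples were Mrps17 (r = 0.971), Clybl, Trip13, 5830432E09Rik, Qpct, Cysltr1, Hmmr, Parpbp, Lmo1 and Kif20a (0.949). For the other members the nearest 3 were Mrc1, Cd164 and Casp8 for Tcf4 (0.925 to 0.950), Tmem176b, Tmem176a and Ctsh for Spib (0.960 to 0.974), and Fbxl20, Mfsd7b and Map3k1 for Runx2 (0.970 to 0.978). They were Mras, Fndc5 and Mgll for Pacsin1 (0.892 to 0.910), Enoph1, Tmem50a and Tns1 for Cox6a2 (0.905 to 0.923), Wdsub1, Sccpdh and Ttl for Ly6d (0.859 to 0.869) and Ccar2, Cep250 and Plcb3 for Klk1 (0.689 to 0.711). None of the 5 members with a mean of at least 50 was among the nearest genes of another member.

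Some samples stood apart within their groups, and several members were extreme in them. Splenic cDC1 replicate 3 had the highest Spib, Cox6a2, Pacsin1 and Klk1 and the lowest Tcf4, Ly6d and Runx2 of its group. Immature thymic cDC1 replicate 3 had the highest Cox6a2 and Pacsin1 and the lowest Siglech, Tcf4, Spib, Runx2 and Klk1. Mature thymic cDC1 replicate 3 had the highest Siglech, Spib, Cox6a2 and Pacsin1 and the lowest Runx2. It held 39353600 reads, against 14782647 and 15779540 in the other 2 samples of its group. Mature thymic cDC2 replicate 3 had the highest Tcf4 and Runx2 and the lowest Spib and Pacsin1, and its summed macrophage markers came to 5826, against 20883 and 22398 in the other 2 samples. Their part in the result was not tested.

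Genes used as markers of other cells moved with some groups as well. T cell markers, 13 genes all found in the data, summed to 11830 to 13796 in the mature thymic samples and to 310.5 to 710 in the immature thymic samples, with Tcf7 the main part and 12 of 13 genes over 3 reads in both mature groups (Ptcra was not). Thymic epithelial markers, 5 genes with Aire the main part, summed to 1659 to 4452 in the mature and 48.5 to 162 in the immature thymic samples. Macrophage markers, 9 of 10 found, summed to between 1082 and 8522 in the cDC1 samples and between 5826 and 24030 in the cDC2 samples. B cell markers, 13 of 14 found, summed to 946 to 1888 in the mature and 3828 to 6128 in the immature thymic samples and reached 14087 in splenic cDC2, with Ighm and Cd22 the main part. In splenic cDC2 10 of the 13 B cell genes exceeded 3 reads in a sample, and 8 had a mean of 10 or more. Pax5, Ebf1 and Vpreb3 did not exceed 3 reads there. Pax5, which defines B cells, was at most 11.0 normalized reads in any sample. Whether these transcripts came from other cells or from the cDC was not tested. Nor was the part of T cell, epithelial, macrophage and B cells in the levels of the 8 genes.

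The wider pDC program was examined with 33 other genes, of which 32 passed the filter on low values (Klk1b27 did not). Calls required a limma adjusted p below 0.1 and a change over 2-fold. Between thymic and splenic immature cells, 14 of 32 were called in cDC1 (4 higher and 10 lower in the thymus), where 8.75% of all genes were called (4.26% higher and 4.49% lower). In cDC2 14 were called (10 higher and 4 lower), beside 14.2% of all genes (8.30% higher and 5.87% lower). The median log2 difference of the list was -0.39 in cDC1 and 0.095 in cDC2, beside 0.004 and 0.02 over all genes. With maturation 24 were called in cDC1 (5 higher, 19 lower), beside 45.7% of all genes (21.3% higher, 24.5% lower). In cDC2 20 were called (6 higher, 14 lower), beside 35.6% of all genes (18.6% higher, 17.0% lower). The medians were -1.55 and -1.03, beside -0.04 and 0.04 over all genes. The list was written with earlier results of these data known, and its genes are expressed in cDC too.

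Among the surface genes of pDC, Bst2, an antiviral tether that serves as a pDC marker in naive mice, was higher in thymic than in splenic cells of both lineages. Its counts were 677 to 1246 in splenic cDC1 and 2450 to 3856 in immature thymic cDC1 (3.34-fold, limma adjusted p = 6.60e-05), and the ratio in cDC2 was 4.23 (limma adjusted p = 2.76e-05). Unlike Siglech it was not lower after maturation, with log2 differences of 0.69 ± 0.28 in cDC1 and 0.20 ± 0.30 in cDC2 that did not meet the call. Ccr9, the chemokine receptor of circulating pDC, fell with maturation as Siglech did. It was 105, 189 and 153 in splenic cDC2, 568, 681 and 648 in immature thymic cDC2 (4.24-fold, limma adjusted p = 2.62e-05) and 150, 354 and 345 in mature thymic cDC2. The fall was called in both lineages (4.23-fold in cDC1, 2.24-fold in cDC2).

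Cd300c and Klra17, the latter a lectin-like receptor, were the surface genes with the largest falls with maturation of cDC2. Cd300c was 274 to 316 in splenic cDC1, 19.2 to 43.9 in immature thymic cDC1 and 0 in all 3 mature thymic cDC1 samples. In cDC2 it went from 308 to 382 in the spleen to 48.3 to 77.9 in immature and 0 to 5.37 in mature thymic cells, and all 4 of these tissue and maturation differences were called. Of the 11 surface genes, none rose by the call with maturation of cDC1 and 8 fell, and in cDC2 1 rose (Ptprs) and 7 fell. Over all genes 21.3% rose and 24.5% fell in cDC1, and 18.6% rose and 17.0% fell in cDC2. Ly6c2 fell in both lineages after being higher in the thymus than in the spleen.

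The other regulators of pDC gave a mixed picture. Irf7, the interferon regulatory factor at the head of the pDC interferon response, was 5.32-fold higher in thymic than in splenic immature cDC1 and 3.95-fold higher in cDC2 (limma adjusted p = 1.64e-05 and 0.000471). With maturation it fell in both lineages, although mature thymic cDC1 replicate 3, the only mature cDC1 sample with Siglech reads, held 13081 beside 4404 and 3664 in the other 2. Bcl11a, a zinc finger factor needed for pDC, fell 7.58-fold in cDC1 and 17.8-fold in cDC2 with maturation (limma adjusted p = 3.73e-08 and 2.62e-09). Irf8, required for cDC1 and expressed in pDC, was 34.4-fold lower in splenic cDC2 than in splenic cDC1 and rose 5.59-fold with maturation of cDC2 (limma adjusted p = 7.46e-08). Zeb2, which supports pDC and cDC2, was 61.6-fold higher in immature thymic cDC2 than in cDC1, and rose with maturation in cDC1 only by the call (2.11 ± 0.39, adjusted p from limma 0.000104). The difference between the lineages in that change was -2.69 ± 0.57 (limma adjusted p = 0.00363).

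**Figure D4:**
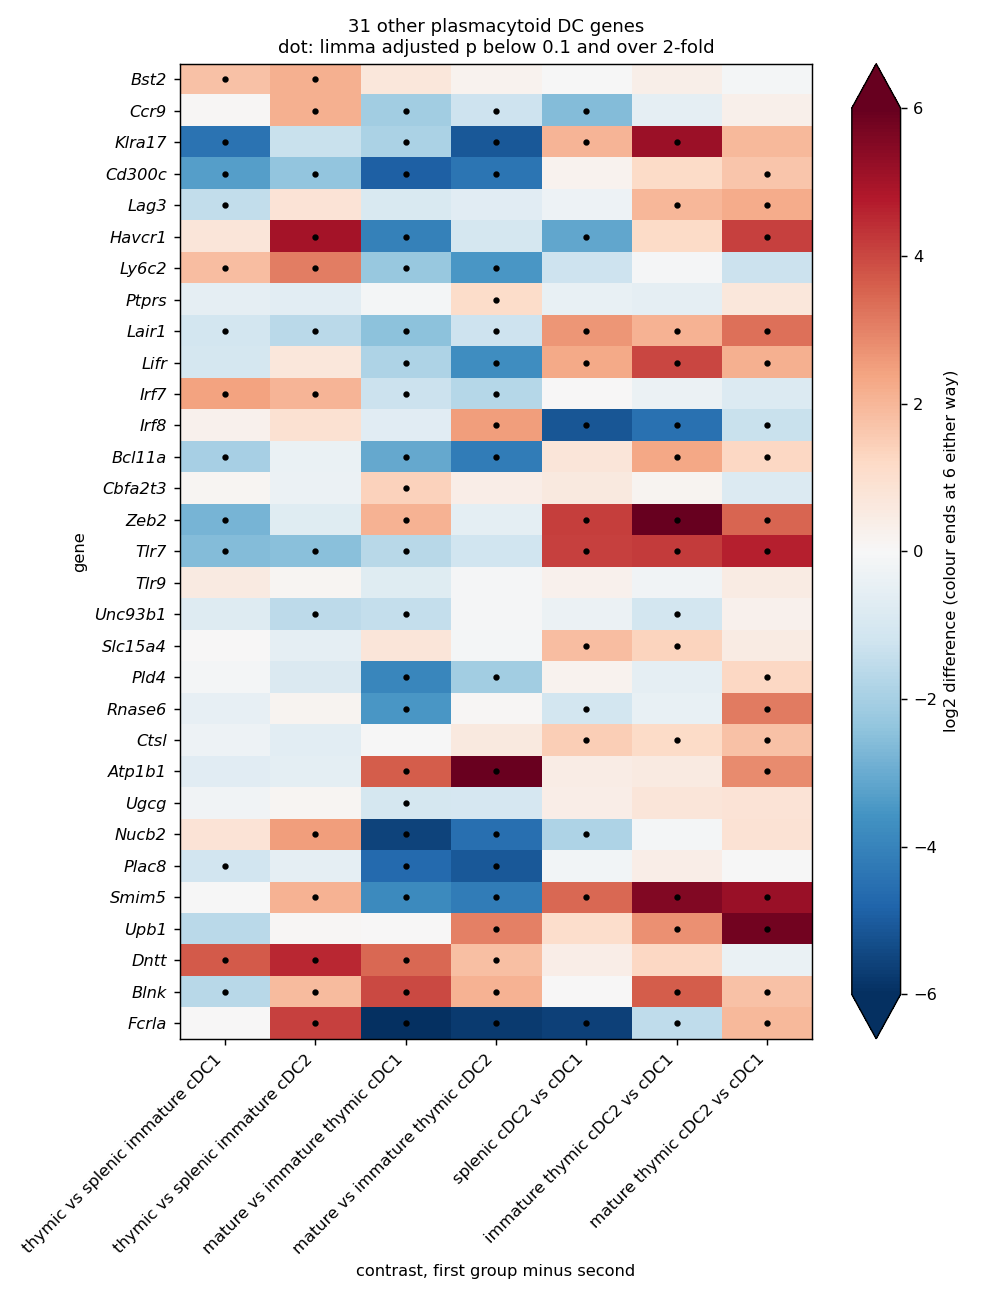
Log2 differences of 31 of the other pDC genes tested (rows) in 7 contrasts (columns, first group minus second), colored from blue for lower to red for higher, with a dot where the limma adjusted p is below 0.1 and the change over 2-fold. The columns for maturation hold more blue than red among the rows with a dot, in cDC1 as in cDC2.

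Of the nucleic acid sensors by which pDC detect viruses, Tlr9, the sensor of CpG DNA, was called in no contrast of 2 groups and lay between 720 and 2191 in all samples. Tlr7, the sensor of single-stranded RNA, was 2063, 2721 and 1768 in splenic cDC2, 444, 361 and 335 in immature thymic cDC2 and 107, 158, 134 and 106 in splenic cDC1. It was lower in the thymus in both lineages (limma adjusted p = 0.0162 in cDC1 and 0.0335 in cDC2). Pld4, the nuclease that degrades endosomal nucleic acid, fell with maturation 14.9-fold in cDC1 and 4.03-fold in cDC2. Of these 6 genes 4 fell with maturation of cDC1 (Tlr7, Unc93b1, Pld4, Rnase6) and 1 with that of cDC2 (Pld4). Among the remaining 10 genes tested, 5 fell and 3 rose with maturation in cDC1, and 4 fell and 4 rose in cDC2. Beside these counts, 24.5% of all genes fell and 21.3% rose in cDC1, and 17.0% fell and 18.6% rose in cDC2. The cathepsin gene Ctsl differed by lineage and not by call in tissue or maturation, and was 2.85-fold higher in cDC2 than in cDC1 of the spleen (limma adjusted p = 9.86e-05).

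Between lineages, 15 of 32 genes were called in the spleen, of which 8 were higher in cDC2 and 7 lower, beside 16.6% of all genes (9.90% higher, 6.71% lower). In immature thymic cells 15 were called, 12 of them higher in cDC2 and 3 lower, beside 16.4% of all genes (11.0% higher, 5.43% lower). In mature thymic cells 17 were called, 16 higher in cDC2 and 1 (Irf8) lower, beside 18.9% of all genes (14.6% higher, 4.36% lower). The tissue effect differed between cDC2 and cDC1 for 9 genes, all more positive in cDC2 and among them Ccr9, Bcl11a and Zeb2, where 4.98% of all genes were called (3.25% more positive, 1.72% more negative). In lane 8 alone, with 14 samples and 1 of splenic cDC2, that count was lower. The maturation effect differed for 12 genes, 9 more positive and 3 more negative in cDC2, with 13.6% called over all genes (8.38% more positive, 5.27% more negative), and 7 genes were left without immature thymic cDC2 replicate 1. For the 8 pDC genes of the set these differences of effects were not tested. Their size was 2.91 ± 1.02 on the log2 scale for the tissue effect on Siglech, that is 3.40 in cDC2 against 0.48 in cDC1, and 1.57 ± 0.30 for Tcf4.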

How the data were processed

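RNA of sorted cDC was sequenced with a stranded mRNA kit. The authors used Cutadapt for trimming, STAR (version 2.6) for alignment to mm10, HTSeq-count for counting and DESeq2 (version 1.24.0) for normalization. The deposited values are a signal, that is each gene's reads over its library's size factor. The annotation release and strand setting are not given in the sources used here. Whole reads were recovered from 100% of the values (tolerance 0.01) in 21 libraries with 14266867 to 40119669 reads. Splenic cDC1 replicates 4 and 5, which shared pool, index and lane and differed least of the pairs in their group, were summed, leaving 20 samples. The p values measure the spread between these samples, and 2 samples share a pool in splenic and in immature thymic cDC1. Immature thymic cDC1 replicates 3 and 4 also share index and lane, but differed most of the pairs in their group (chi-square per degree of freedom 92.8, against 2.44 for the summed pair) and were kept as 2 samples.

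limma (version 3.58.1, R 4.3.3) was fitted over 6 group means to log2 of the value plus 1, for the 14966 genes that reached 10 in 3 samples or more, with Benjamini-Hochberg adjusted p values over these genes. A call required an adjusted p below 0.1 and a change over 2-fold. Fold changes printed as ratios are of mean values, and log2 differences are on the log2(value + 1) scale. For low genes this scale can understate a change or, where samples at 0 are averaged with others, overstate it. The Siglech difference between mature and immature thymic cDC1 was -7.14 on this scale and -5.26 by edgeR. Alternatives were DESeq2 (version 1.42.0) and edgeR (version 4.0.16) on the recovered reads, other scalings, filters and thresholds, lane 8 alone, and omission of samples. Omission of the most distant sample of each group, by chi-square between libraries, was added after seeing the data. With 200 changed genes in simulated data of mature against immature thymic cDC1, limma made 206 calls, 26 of them false. It recovered 80% of changes of 1.5 and 100% of those of 2.5 on the log2 scale. The step ran on 14966 genes. Apart from the changed genes, all groups were drawn from the same mean per gene, with a dispersion of 0.1 throughout. Only genes with means above a floor were changed. These rates therefore need not hold for the real samples, where many more genes were called.

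The 8 members and all lists were chosen with earlier results of these data known. Named were the members, 12 of the other pDC genes (Bst2, Ccr9, Klra17, Cd300c, Irf7, Irf8, Bcl11a, Zeb2, Tlr7, Tlr9, Pld4, Ctsl), any gene in a count of up to 5, Id2, the sorting genes, marker genes, and the most alike genes (10 for Siglech and 3 for each other member, by Pearson r over 20 samples, with a mean value of at least 50). Other called genes of short lists were named after their values were seen. Gene positions, exon lengths and overlaps are from GENCODE M21. Some genes of the lists entered the counts and sums and are not reported here by name.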

Additional observations from a re-analysis of the deposited data

Results flagged for a closer look

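Outlying samples were looked for in the 2 groups with 4 samples, for the 8 members and 15 other named genes. Dixon's ratio was above its 95% critical value in 3 of 46 tests, where chance flags about 1 in 20. Ly6d in splenic cDC1 was 12.3 in the combined replicates 4 and 5, with the next sample at 6.18. Cox6a2 was 12.0 in splenic cDC1 replicate 3, with the next at 3.09. Pld4 was 10454.5 in the same replicate, with the next at 7066.

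Effects differed between cDC2 and cDC1 in a limma test of the difference for the following named genes, all differences being on the log2 scale and cDC2 minus cDC1. The tissue effect differed by 2.05 ± 0.39 for Ccr9 (limma adjusted p = 0.00255), by 1.61 ± 0.44 for Bcl11a (limma adjusted p = 0.0355) and by 2.05 ± 0.56 for Zeb2 (limma adjusted p = 0.0344). It differed by 1.29 ± 0.28 for Id2 (limma adjusted p = 0.00699) and by -2.70 ± 0.73 for the sorting gene Esam (limma adjusted p = 0.0333), whose values in immature thymic cDC2 were 1.07 to 14.0.

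The maturation effect differed by 3.15 ± 0.34 for Irf8 (limma adjusted p = 3.61e-06), which was lower by 0.66 in mature cDC1 and higher by 2.49 in mature cDC2. It differed by 1.79 ± 0.41 for Pld4 (limma adjusted p = 0.00583), by 1.49 ± 0.29 for Id2 (limma adjusted p = 0.00163) and by -2.69 ± 0.57 for Zeb2 (limma adjusted p = 0.00363). It differed by -3.18 ± 1.22 for Klra17 (limma adjusted p = 0.0936), whose mature thymic cDC1 values were 0, 0 and 6.40. For the sorting gene Ccr7 the difference was -2.41 ± 0.45 (limma adjusted p = 0.00126).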

How the results depend on the processing

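Counts of the other pDC genes called stayed within 1.5 times of those reported under DESeq2, edgeR, TMM scaling, the adjusted p alone, no filter, a pseudocount of 8, all 21 libraries apart, summed pools and omission of the most distant sample of each group. At a log2 change above 2 the counts were 7 for the tissue contrast in cDC1, 10 for mature thymic cDC2 against cDC1 and 7 for the difference in maturation effects, by construction of the stricter threshold. In lane 8 alone, with 14 samples and 1 of splenic cDC2, they were 9 for the tissue contrast in cDC2 and 2 for the difference in tissue effects, with fewer samples by construction. All mature samples were in lane 8, and each immature group was divided between lanes 5 and 8. Lane was thus not balanced over maturation or tissue. With 1 sample left out the counts ranged from 14 to 16 and from 14 to 15 for the tissue contrasts in cDC1 and cDC2, from 21 to 25 and from 18 to 21 for maturation, from 13 to 16, from 14 to 16 and from 17 to 19 for the lineages in spleen, immature and mature thymic cells, from 7 to 10 for the difference in tissue effects and from 7 to 13 for that in maturation effects. The median within-group correlation of the members, 0.094 as reported, then lay between 0.008 and 0.144. It was -0.066 by Spearman's rho, -0.027 without the most distant samples and -0.005 in lane 8 alone, and between 0.055 and 0.092 under the other settings. Of 1337 log2 differences of members under alternatives, 25 moved by more than 1 SD and 5 changed sign, from values of at most 0.515 in size. For cDC1 and cDC2 samples of the same pool number, r of deviations was -0.0495, 0.336 and 0.455 in spleen, and -0.124, 0.212 and 0.117 in immature thymus. Between different pool numbers it ran from -0.496 to 0.346 in spleen and from -0.379 to 0.29 in immature thymus. So few pools do not decide whether the pool number pairs the samples. With pool number as a replicate block, on libraries summed by pool and fitted to both groups alone, 15 genes were called in spleen and 17 in immature thymic cells. The same fit without the block gave the same counts, and the fit of all groups gave 15 and 15. The other contrasts within the thymus share at most 1 pool number and were not examined for pairing. Depth limits Ly6d, Cox6a2 and Klk1, whose values rest on few reads.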
